A study of Mus musculus with 19 samples.

Results

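The Wnt signalling genes of mouse astrocytes were followed in males and across 3 estrous stages. The set held 43 of the 21749 genes in the deposited table. It was chosen by gene symbol: every symbol that begins with Wnt or Fzd and a digit, and 19 named pathway genes. The list was drawn up with results of these data known, among them the difference of Bcl9l between estrus and proestrus. Values of Bcl9l in that contrast are therefore given as a description with no test. By role, the set held 13 Wnt ligands, 10 Frizzled receptors, 2 Lrp coreceptors, 2 secreted modulators and 2 receptor ligases. It also held 3 Dishevelled genes, 3 genes of the destruction complex, beta-catenin with its 2 Bcl9 cofactors, and 4 TCF/LEF transcription factors. The last member, Fzd10os, was caught by the spelling of its symbol. It is a transcript that runs away from Fzd10 on the opposite strand, not a receptor. All 43 passed the filter on low values (at least 3.32 on the log2 scale in at least 3 libraries), as did 94.9% of all genes.

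Wnt proteins are secreted lipid-modified ligands that bind Frizzled receptors together with Lrp5 or Lrp6. Binding draws Dishevelled and Axin to the membrane and stops the destruction complex, built on Axin and Apc, from marking beta-catenin for degradation. Beta-catenin then enters the nucleus, pairs with TCF/LEF factors and, through Bcl9 or Bcl9l, with Pygopus to switch on target genes. In the brain, Wnt7a and Wnt7b are known for signalling to the endothelium that forms the blood-brain barrier.

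The mice, of both sexes, carried the transgene Tg(Aldh1l1-EGFP/Rpl10a)JD130Htz on a B6;FVB background. It encodes the ribosomal protein L10a fused to EGFP under the regulatory sequence of Aldh1l1, a gene of astrocytes, so that ribosomes with their bound messenger RNA can be pulled down from these cells (translating ribosome affinity purification, TRAP). Every group carried this transgene, the labels name no drug or hormone for any group, and the labels give no age. Tissue from females was taken at 09:00, giving 8 libraries in metestrus, 3 in proestrus (labelled Pro-Day) and 4 in estrus. Males gave 4 libraries, with no hour stated. The labels name the tissue as brain and 3 batches. Library titles hold CTX in batches 2 and 3, and FA (metestrus) or MA (males) in batch 4. Each female stage had 1 library in batch 3. In batch 2 there were 3 from estrus and 2 each from metestrus and proestrus. The rest, 5 from metestrus and 4 from males, made up batch 4. The labels do not tie libraries to animals, and p-values therefore measure the spread between libraries, which may be technical.

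Sequencing depth is unknown, because the table holds log2 values and no counts. The libraries summed to 1.98e+07 to 2.56e+07 after the values were taken back from that scale. Markers of astrocytes were abundant: the mean over 12 genes was 14.11 ± 0.18 (SD, n = 8) in metestrus, 14.01 ± 0.02 (SD, n = 3) in proestrus, 14.02 ± 0.28 (SD, n = 4) in estrus and 14.33 ± 0.08 (SD, n = 4) in males. The mean over 10 neuron markers was 12.57 ± 0.16 (SD, n = 8) in metestrus. No library of unpurified tissue was analysed here, so the values below cannot be assigned to astrocytes alone. In such bulk samples, fewer cells of a type and less RNA per cell cannot be told apart.

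The TCF/LEF factors bind DNA at CTTTGAT, and the Wnt5b, Fzd10 and Tcf7l1 promoters show what a match to it, or to its shorter core CTTTG, looks like. The promoter windows from RefSeq (build GRCm38.p6) run from 250 bases before to 50 bases after a gene's start. GENCODE vM21, used below for lengths, starts these genes elsewhere, and the matches shown lie within its gene bounds. Each sequence is given 5′ to 3′ on the strand of its gene, with the matched letters in capitals. CAAAG is CTTTG read from the other strand. Wnt5b is the member whose window held the full CTTTGAT, Fzd10 had the largest difference between proestrus and metestrus among the receptors, and Tcf7l1 differed most clearly between males and metestrus.
Wnt5b, chr6:119449441-119449467, minus strand: gtaagtctctCTTTGATctgctccctg
Fzd10, chr5:128600958-128600982, plus strand: aagaagaggcCAAAGtttgcgcgct
Tcf7l1, chr6:72789059-72789083, minus strand: cctgtcaaaaCTTTGtcgccgcagc

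RefSeq gave a window for 27 of the 43 members, 36 windows in all. CTTTGAT, searched on both strands, was found in 1 of these 36 (2.78%) and in 3.73% of all 32851 windows. The shorter CTTTG, which every CTTTGAT contains, was found in 15 of the 36 (41.7%) and in 53.9% of all windows. The 10 members with it were Dvl2, Fzd1, Fzd10, Fzd7, Lef1, Tcf7l1, Tcf7l2, Wnt3, Wnt5b and Wnt9b. The palindromic estrogen response element (GGTCANNNTGACC, where N is any base) was found in 0 of the 36 and in 0.07% of all windows. The matches are letters in a window and were not tested as binding sites.

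Levels of different genes can be compared per length of transcript. The log2 value minus the log2 of the exon length in kilobases (GENCODE vM21, build GRCm38) was therefore used for the order of the metestrus levels, where 1 unit is a doubling. The authors' annotation may hold other exons. Whether the deposited values were already scaled for length is not stated, and this order holds only if they were not. Among the ligands, Wnt7b (8.21) and Wnt7a (8.04) stood highest, followed by Wnt4 at 5.77 and Wnt10a at 5.69. Wnt2b (0.77), Wnt16 (0.59) and Wnt9b (-1.12) were lowest, and their deposited means lay under the filter value of 3.32 in all 4 groups. Fzd2 led the receptors at 7.42, ahead of Fzd9 (6.69), Fzd1 (6.66) and Fzd3 (6.28), and Fzd5 was lowest at 2.11. The coreceptor Lrp6 stood at 5.23 per kilobase and Lrp5 at 1.48.

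Inside the cell, Ctnnb1, which encodes beta-catenin, reached 9.74 on the same per-kilobase scale. Dvl3 (7.84) and Dvl1 (7.69) exceeded Dvl2 (5.19). Apc (7.11) and Axin1 (7.11) were level with each other, above Axin2 (5.99), itself a well-known target of the pathway. Bcl9l stood at 6.29 and Bcl9 at 5.24. The TCF/LEF genes ran from Tcf7l2 (7.96) and Tcf7l1 (7.54) to Lef1 (5.49) and Tcf7 (4.80). Of the secreted modulators, Dkk3, a divergent member of the Dickkopf family, was highest of the whole set per kilobase at 10.17, and the Wnt-binding Sfrp1 stood at 6.66. As deposited, the metestrus mean of Ctnnb1 (12.12) exceeded that of Dkk3 (11.92), and Apc (11.12) exceeded Axin1 (9.05). Znrf3 (6.63) exceeded Rnf43 (2.06), both ubiquitin ligases that remove Frizzled receptors from the membrane.

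**Figure D1:**
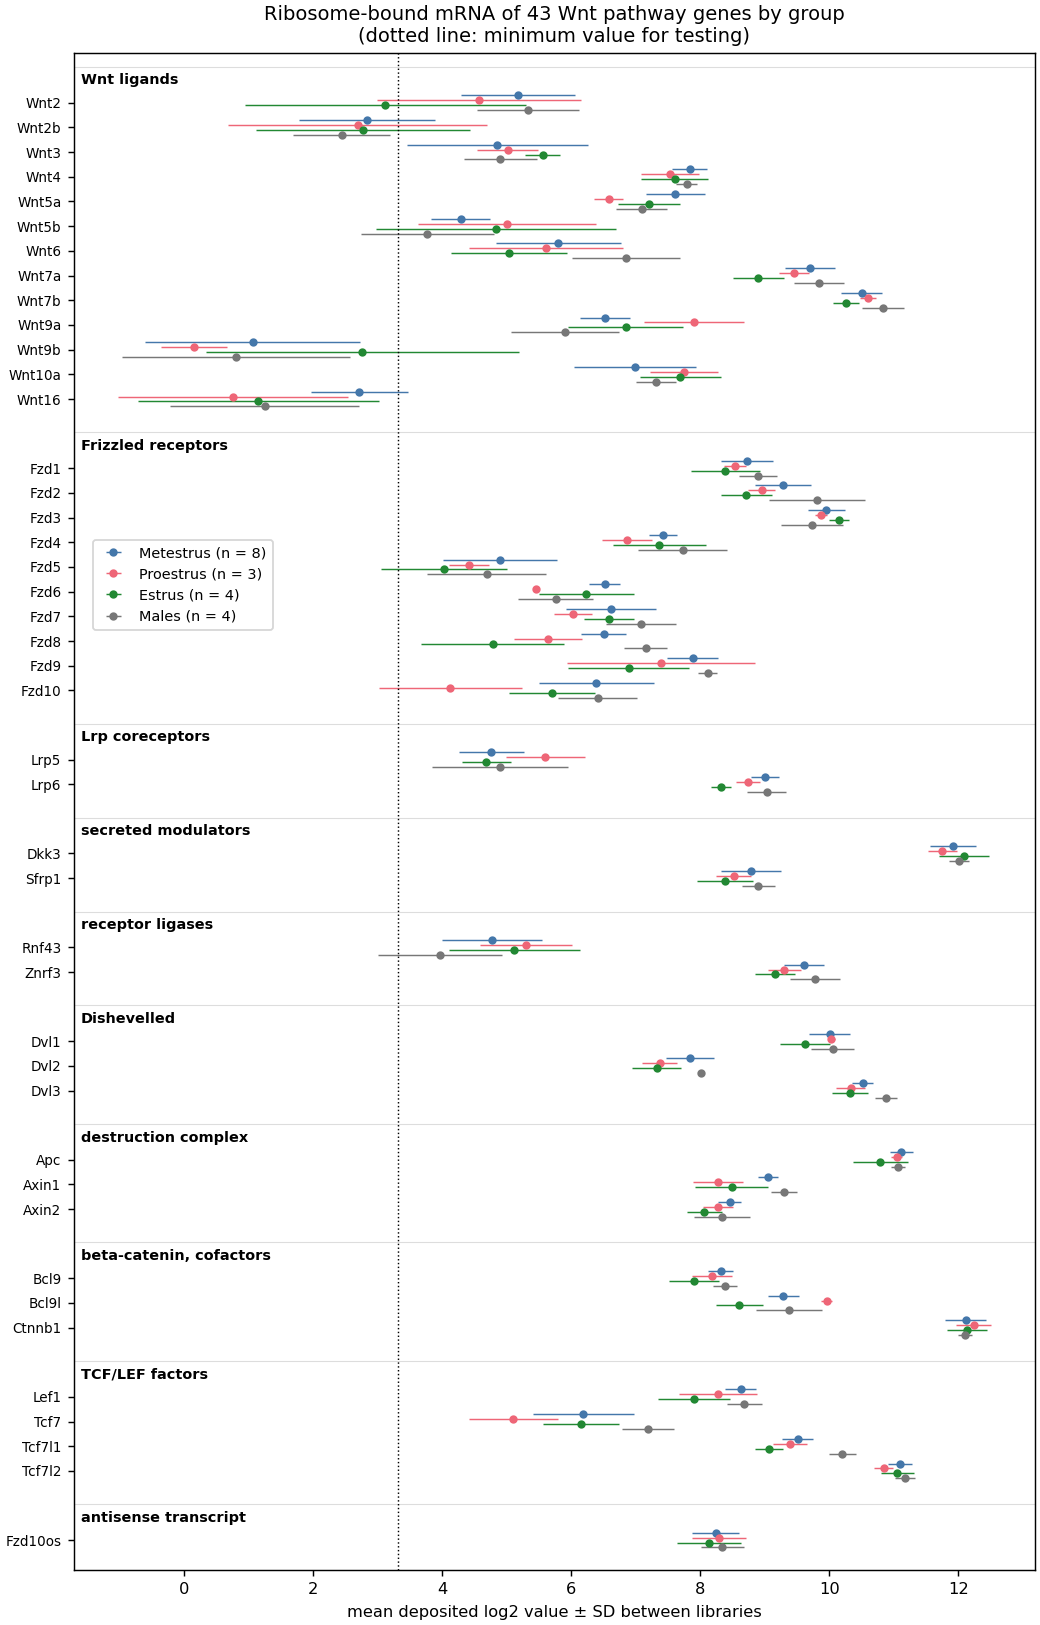
Mean deposited log2 value of each of the 43 genes by group, with bars of 1 SD between libraries (8 metestrus, 3 proestrus, 4 estrus, 4 male). Ctnnb1 and Dkk3 sit near 12 in every group, and the dotted line marks the minimum of 3.32 under which the means of Wnt2b, Wnt9b and Wnt16 lie.

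Ctnnb1 was nearly level across the groups. It averaged 12.12 ± 0.32 (SD, n = 8) in metestrus, 12.24 ± 0.27 (SD, n = 3) in proestrus, 12.14 ± 0.31 (SD, n = 4) in estrus and 12.10 ± 0.11 (SD, n = 4) in males. Between libraries of a group, the members varied about as much as other genes: the median residual SD was 0.471 over the 43 and 0.492 over all genes tested.

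Bcl9l, the Bcl9-like cofactor of beta-catenin (ENSMUSG00000063382.7), was highest in proestrus and lowest in estrus. Its log2 values in the proestrus libraries were 10.03, 9.87 and 9.99, and those in the estrus libraries were 9.05, 8.18, 8.50 and 8.70. The groups did not overlap. The fitted difference of estrus against proestrus was -1.37 ± 0.25 on the log2 scale (SE), or 2.59-fold lower. Within batch 2 the difference was -1.37 (3 against 2 libraries) and within batch 3 it was -1.30 (1 against 1). Metestrus lay between, with 8.81 as its lowest, 9.32 as its median and 9.56 as its highest value. The male libraries read 10.03, 9.51, 8.88 and 9.07, so 1 of them reached the proestrus level and the other 3 lay within the metestrus range. By group mean, the order was 9.96 ± 0.08 (SD, n = 3) in proestrus, 9.37 ± 0.51 (SD, n = 4) in males, 9.29 ± 0.24 (SD, n = 8) in metestrus and 8.61 ± 0.36 (SD, n = 4) in estrus. Males and metestrus, neighbours in this order, differed by less than their spread.

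Bcl9 (ENSMUSG00000038256.16), the paralog with the same place in the beta-catenin complex, showed no such peak. Its proestrus libraries read 8.16, 8.52 and 7.89, and its estrus libraries 7.89, 7.94, 7.43 and 8.37. In metestrus its lowest value was 8.08, its median 8.25 and its highest 8.63, and the male values were 8.63, 8.27, 8.20 and 8.44. All 4 groups of Bcl9 overlapped. The fitted difference of estrus against proestrus was -0.28 ± 0.24 (SE). The difference in log2 value between Bcl9l and Bcl9 within a library was 1.35, 1.87 and 2.10 in proestrus. It ran from 0.56 to 1.37 in metestrus, with a median of 0.97, from 0.24 to 1.16 in estrus, with a median of 0.70, and from 0.63 to 1.40 in males. The lowest proestrus library thus fell within the metestrus and male ranges, and the other two lay above every library of the other groups.

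**Figure D2:**
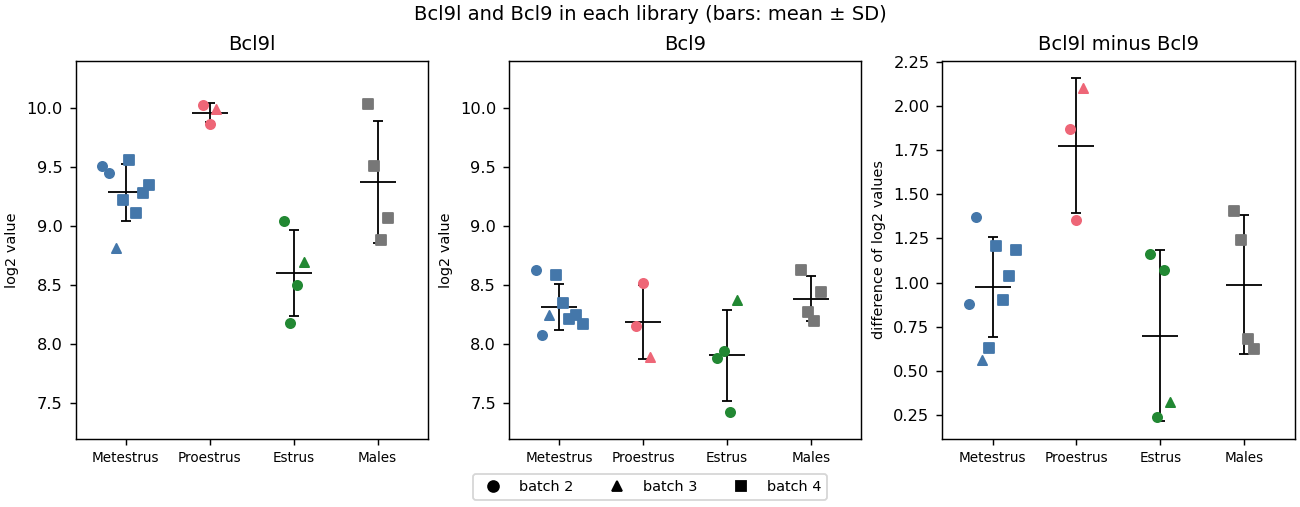
Deposited log2 values of Bcl9l and Bcl9 and their difference in each library, by group, with the mean and 1 SD as bars and the batch as the shape of the point. The 3 proestrus libraries of Bcl9l sit between 9.87 and 10.03, above every metestrus and estrus library.

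In estrus against proestrus, 0.94% of all genes tested passed an adjusted p of 0.05 in limma. Apart from Bcl9l, whose difference in this contrast was known when the list was drawn up, 0 of the members did so. For the same reason nothing is read from the counts in this contrast. At an unadjusted p under 0.05 there were 5 members beside 14.5% of all genes, and 3 members whose groups did not overlap beside 9.06%. Besides Bcl9l, those 3 were Lrp6 (-0.44 ± 0.21, SE) and Dvl1 (-0.40 ± 0.24, SE). The median difference was -0.15 over the members and 0.02 over all genes, and 28 of 43 members (65.1%) had a negative difference against 48% of all genes. No marker of a cell type passed the threshold here. Lower in estrus were 8 of 9 endothelial markers (median -1.08), 5 of 6 mural cell markers (-0.35) and 7 of 8 RNAs kept in the nucleus (-1.54). These lists held 4, 2 and 5 at an unadjusted p under 0.05. Medians of the other lists ran from -0.56 (oligodendrocyte precursor) to 0.41 (choroid plexus and ependyma). Their part in the Wnt gene values was not tested.

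Proestrus was compared with metestrus to ask which Wnt genes differ in the stage when estrogen peaks. No member passed the adjusted threshold in limma, beside 0.988% of all genes. An unadjusted p under 0.05 was found for 6 members (14%), beside 13.1% of all genes, and the groups did not overlap for 5 (11.6%), beside 8.73%. These shares lie near the background. The 6 were Fzd10, Axin1, Wnt5a and Fzd6, with negative differences, and Bcl9l and Wnt9a, with positive ones. Bcl9l was listed with its difference between estrus and proestrus known, and the same proestrus libraries enter here. Its place in these counts is therefore a description. The median difference was -0.26 over the members and -0.09 over all genes, and 32 of 43 members (74.4%) had a negative difference against 58.1% of all genes. In batch 2 the mean over the members was 7.40 and 7.71 in proestrus, beside 7.66 and 7.59 in metestrus. In batch 3, with 1 library each, it was 7.06 in proestrus and 7.74 in metestrus. This contrast and those of estrus share libraries and are not independent of each other. Markers of cell types were also compared, and none passed the threshold. Of 12 astrocyte markers 10 were lower in proestrus (median -0.10). So were 5 of 6 choroid plexus and ependyma markers (-0.78) and 5 of 8 RNAs kept in the nucleus (-0.69). The choroid plexus and nuclear lists each held 2 at an unadjusted p under 0.05. Medians of the other lists ran from -0.19 (endothelial) to 0.16 (oligodendrocyte). The part of these markers in the Wnt gene values was not tested.

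All 10 Frizzled genes had a negative difference in proestrus against metestrus, with a median of -0.52, and none passed the adjusted threshold. The sign was negative for all 10 also after the libraries were centred on their medians and with a pseudocount of 1 or 10. These settings could hardly change it: centring moved the median over all genes only from -0.089 to -0.052. The smallest Frizzled difference was -0.091, for Fzd3. In no comparison were the signs of a gene family checked inside each batch or with single libraries left out. Fzd10 (ENSMUSG00000081683.6) differed most. Its proestrus libraries read 3.52, 5.40 and 3.46, of which 2 lie near the filter value of 3.32. In metestrus the lowest value was 4.72, the median 6.59 and the highest 7.47. Estrus gave 6.63, 5.30, 5.74 and 5.13, and males 7.13, 5.76, 6.66 and 6.09. Proestrus replicate 2, at 5.40, overlapped metestrus, and the other two lay below every library of the other groups. The difference was -2.36 ± 0.66 (SE, adjusted p = 0.0923 in limma), or 5.12-fold lower. It was -1.73 within batch 2 and -3.60 within batch 3, and leaving out single libraries gave -2.99 to -1.78. Fzd6 (proestrus 5.47, 5.43 and 5.44, metestrus 6.24 to 6.88) gave -1.09 ± 0.44 (SE, adjusted p = 0.281 in limma) with no overlap.

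Fzd10os, which starts 151 bases from Fzd10 on the opposite strand in GENCODE vM21 (chr5:128579106-128600693 beside chr5:128600844-128604093, build GRCm38), did not share the low proestrus values. Its proestrus libraries read 8.09, 8.77 and 8.02. The metestrus values had 7.76 as the lowest, 8.34 as the median and 8.75 as the highest. The estrus values were 8.45, 8.58, 8.03 and 7.49, and the male values 8.18, 8.05, 8.31 and 8.81. The groups overlapped throughout, and the difference of proestrus against metestrus was 0.02 ± 0.31 (SE, adjusted p = 0.986 in limma). The sources used here do not say whether the counting used strand.

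Axin1 (ENSMUSG00000024182.19), the scaffold of the destruction complex, was 1.69-fold lower in proestrus than in metestrus, short of the threshold. The proestrus values were 8.42, 8.56 and 7.83. Metestrus had 8.77 as its lowest, 9.05 as its median and 9.24 as its highest value, so these groups did not overlap. The estrus values spread widely, at 9.14, 8.71, 8.28 and 7.83, and the male values were 9.38, 9.00, 9.44 and 9.37. The difference of proestrus against metestrus was -0.76 ± 0.22 (SE, adjusted p = 0.107 in limma), at -0.67 within batch 2 and -0.94 within batch 3. Axin2, the feedback paralog, averaged 8.46 ± 0.18 (SD, n = 8) in metestrus and 8.28 ± 0.23 (SD, n = 3) in proestrus, with a difference of -0.18 ± 0.26 (SE).

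Wnt5a (ENSMUSG00000021994.16), a ligand mostly linked to signalling without beta-catenin, read 6.64, 6.77 and 6.34 in proestrus. In metestrus its lowest value was 7.10, its median 7.63 and its highest 8.40. It read 7.83, 7.07, 7.26 and 6.68 in estrus and 6.51, 7.29, 7.19 and 7.38 in males. Proestrus lay below all metestrus libraries and overlapped estrus and males. The difference from metestrus was -1.05 ± 0.37 (SE, adjusted p = 0.210 in limma). Another ligand, Wnt9a, lay in the opposite direction: its proestrus values of 7.21, 8.75 and 7.74 stood above the metestrus range of 5.88 to 6.96, with a difference of 1.30 ± 0.52 (SE, adjusted p = 0.268 in limma). Bcl9l, whose proestrus libraries were part of the difference known beforehand, differed by 0.71 ± 0.27 (SE, adjusted p = 0.249 in limma). The difference was 0.47 within batch 2 and 1.18 within batch 3.

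**Figure D3:**
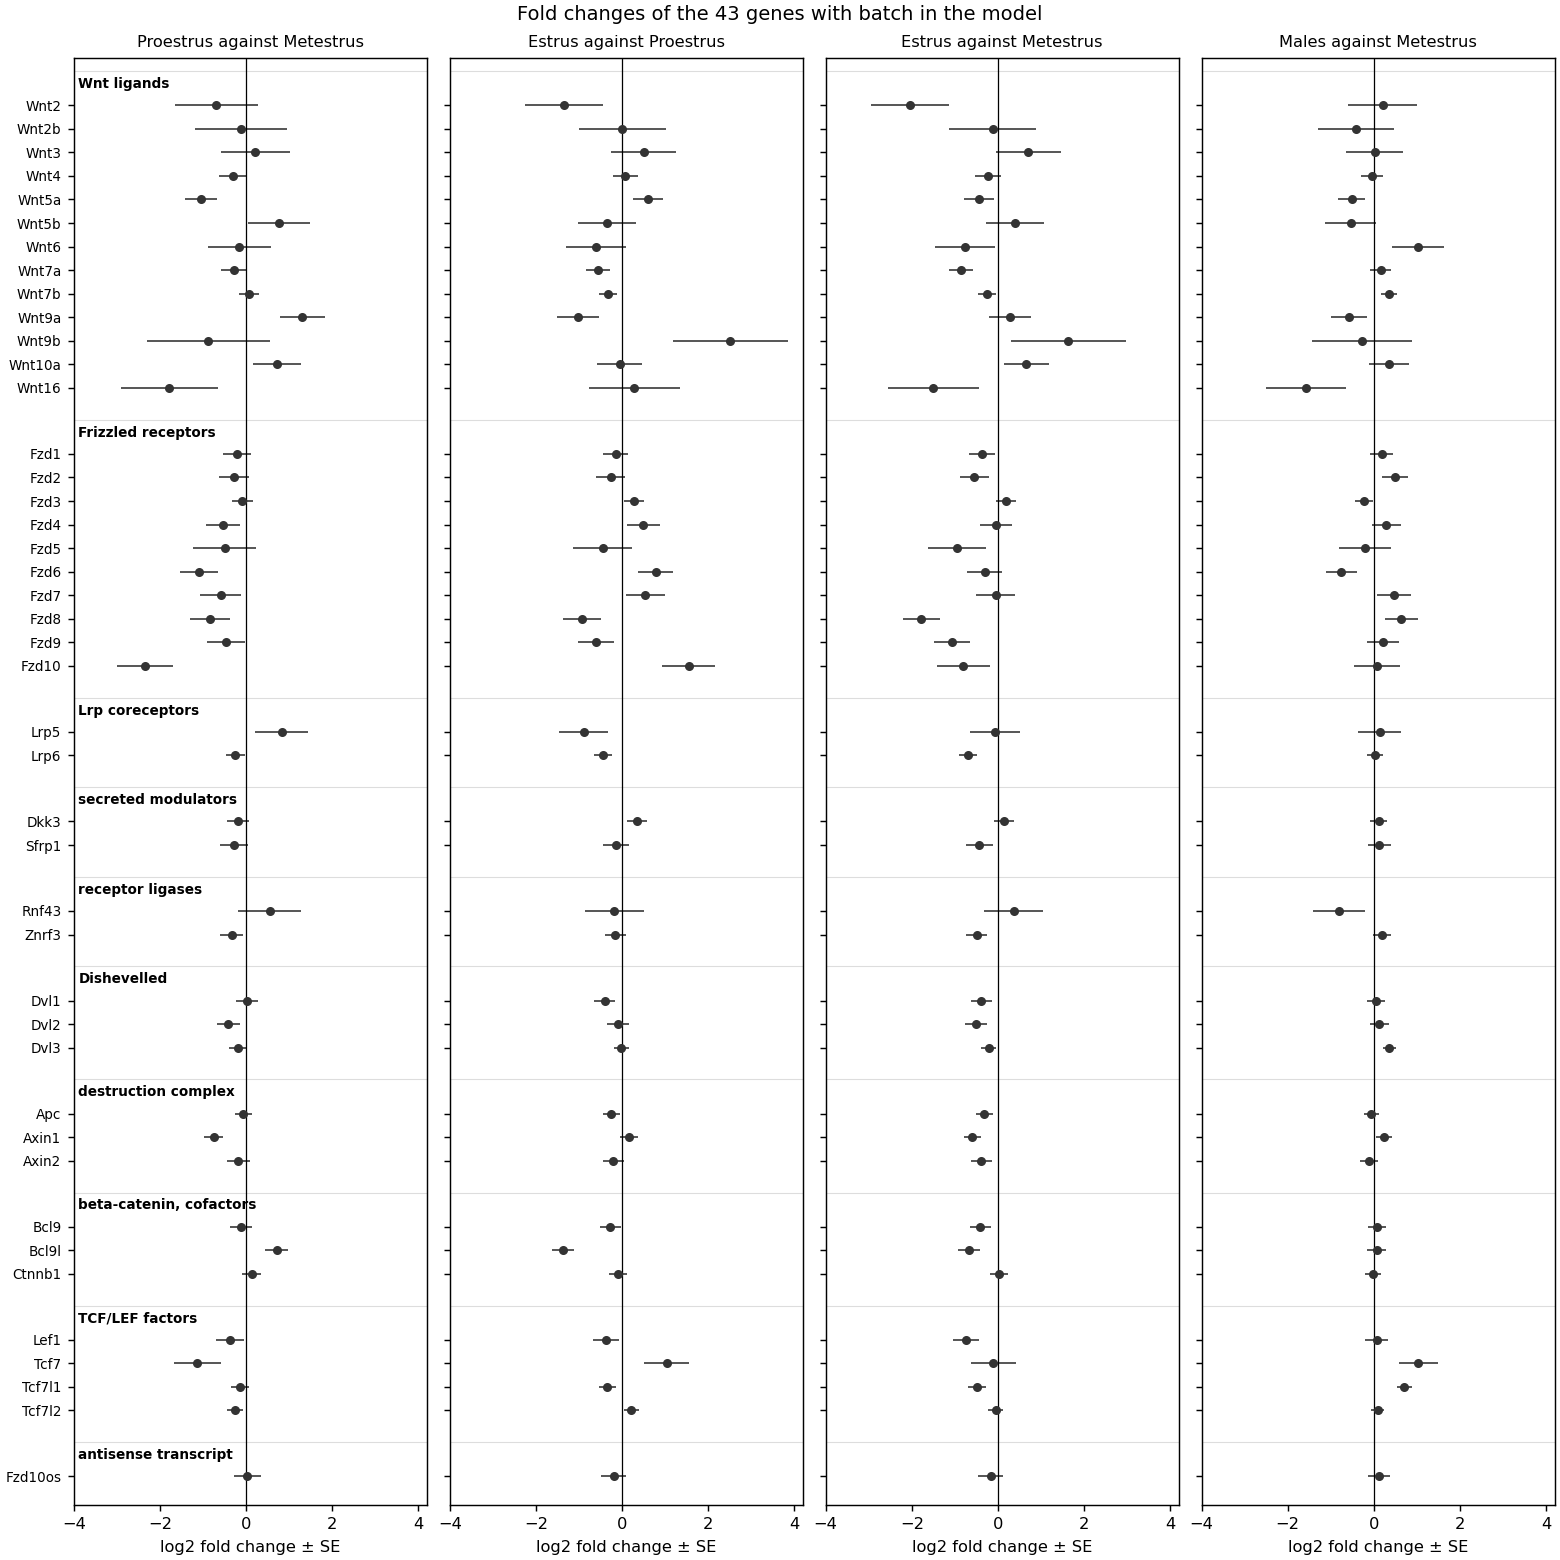
Fitted log2 fold change of each of the 43 genes in the 4 comparisons, with bars of 1 SE and batch in the model. All 10 Frizzled genes lie left of 0 in proestrus against metestrus, and Bcl9l lies at -1.37 in estrus against proestrus.

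Estrus was compared with metestrus, and here the members leaned lower while none passed the adjusted threshold in limma, beside 0.0872% of all genes. The median difference was -0.37 over the members and -0.07 over all genes, and 34 of 43 members (79.1%) had a negative difference against 56.5% of all genes. In batch 2 the mean over the members was 7.62, 7.27 and 7.40 in estrus, beside 7.66 and 7.59 in metestrus. In batch 3, with 1 library each, it was 7.11 in estrus and 7.74 in metestrus. An unadjusted p under 0.05 was found for 9 members (20.9%), beside 11.3% of all genes, and each of the 9 was lower in estrus. The groups did not overlap for 1 member (2.33%), Lrp6, beside 3.33% of all genes. The 9 were the ligands Wnt7a and Wnt2, the receptors Fzd8, Fzd9 and Lrp6, the scaffold Axin1, Bcl9l, and the factors Lef1 and Tcf7l1. Bcl9l was listed with its difference between estrus and proestrus known, and the same estrus libraries enter here. Its place among the 9 is therefore a description. Of the Frizzled genes, 9 of 10 had a negative difference (median -0.46), as did all 4 TCF/LEF genes (median -0.30), also after centring and with either pseudocount.

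Fzd8 (ENSMUSG00000036904.7) showed the smallest p of these. Its estrus libraries read 5.77, 4.84, 5.30 and 3.22. In metestrus its lowest value was 5.75, its median 6.55 and its highest 6.91. Proestrus gave 6.06, 5.81 and 5.05, and males 6.68, 7.17, 7.45 and 7.33. The groups met at 1 library on each side, and the library at 3.22 stood apart from the other estrus libraries. The difference of estrus against metestrus was -1.78 ± 0.44 (SE, adjusted p = 0.117 in limma), at -1.02 within batch 2 and -3.58 within batch 3. Leaving out single libraries gave -2.36 (without Metestrus replicate 2) to -1.16 (without Metestrus replicate 3).

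Lrp6 (ENSMUSG00000030201.16), the main coreceptor by level, read 8.56, 8.20, 8.28 and 8.26 in estrus. All 4 lay below the metestrus libraries, whose lowest was 8.71, median 9.02 and highest 9.38, and below the proestrus libraries at 8.64, 8.96 and 8.64. Males gave 9.26, 8.76, 8.78 and 9.32. The difference of estrus against metestrus was -0.69 ± 0.21 (SE, adjusted p = 0.210 in limma), or 1.62-fold lower, at -0.75 within batch 2 and -0.56 within batch 3. Lrp5, the lesser coreceptor, differed by -0.07 ± 0.57 (SE).

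Wnt7a (ENSMUSG00000030093.8) read 9.48, 8.80, 8.58 and 8.75 in estrus, so that 3 of 4 libraries lay below the metestrus minimum of 9.08. The metestrus median was 9.60 and the highest value 10.34. Proestrus gave 9.48, 9.68 and 9.20, and males 9.89, 9.33, 10.29 and 9.86. The difference of estrus against metestrus was -0.85 ± 0.28 (SE, adjusted p = 0.247 in limma). Wnt7b, the other abundant ligand, averaged 10.26 ± 0.20 (SD, n = 4) in estrus and 10.50 ± 0.32 (SD, n = 8) in metestrus, with a difference of -0.26 ± 0.21 (SE).

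Fzd9, a receptor expressed in the developing brain, read 7.30, 7.99, 6.38 and 5.88 in estrus and 7.45 to 8.68 in metestrus, with a difference of -1.07 ± 0.42 (SE, adjusted p = 0.339 in limma). Lef1, a TCF/LEF factor that mostly activates targets, ran from 7.14 to 8.47 in estrus and from 8.33 to 9.02 in metestrus, with a difference of -0.75 ± 0.30 (SE, adjusted p = 0.359 in limma). For both genes 3 estrus libraries lay below the metestrus minimum and 1 lay inside the metestrus range.

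Markers of other material moved with the estrus group. The mean of 9 endothelial markers was 3.53, 4.07, 4.31 and 4.86 in estrus, below its range of 5.02 to 6.03 in metestrus and of 4.90 to 5.84 in proestrus. In males it ran from 5.14 to 7.12. The endothelial receptor Tek averaged 0.49 in estrus and 4.40 in metestrus. Against metestrus, 8 of 9 endothelial markers had a negative difference in estrus (median -0.93), and none passed the threshold. The mean of 8 RNAs kept in the nucleus, such as Malat1, was 7.82, 7.24, 6.05 and 9.17 in estrus, 9.46, 7.70 and 10.18 in proestrus, 9.48 to 10.58 in metestrus and 8.22 to 10.47 in males. All 8 had a negative difference in estrus against metestrus (median -2.39), with none past the threshold. The mean of 8 oligodendrocyte markers was 10.62 to 11.04 in estrus, above its range of 10.35 to 10.48 in metestrus, and all 8 had a positive difference (median 0.31, 3 of them at an unadjusted p under 0.05). Of 6 mural cell markers 4 had a negative difference (median -0.61, 2 at an unadjusted p under 0.05), and of 4 oligodendrocyte precursor markers 3 did (median -0.56, 1 at an unadjusted p under 0.05). The medians of the remaining lists were 0.14 for neurons, -0.11 for astrocytes, 0.00 for microglia, 0.27 for fibroblasts and -0.38 for choroid plexus and ependyma, each with 0 markers at an unadjusted p under 0.05. None of the markers of these lists passed the threshold, and the part of any of them in the Wnt gene values was not tested.

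**Figure D4:**
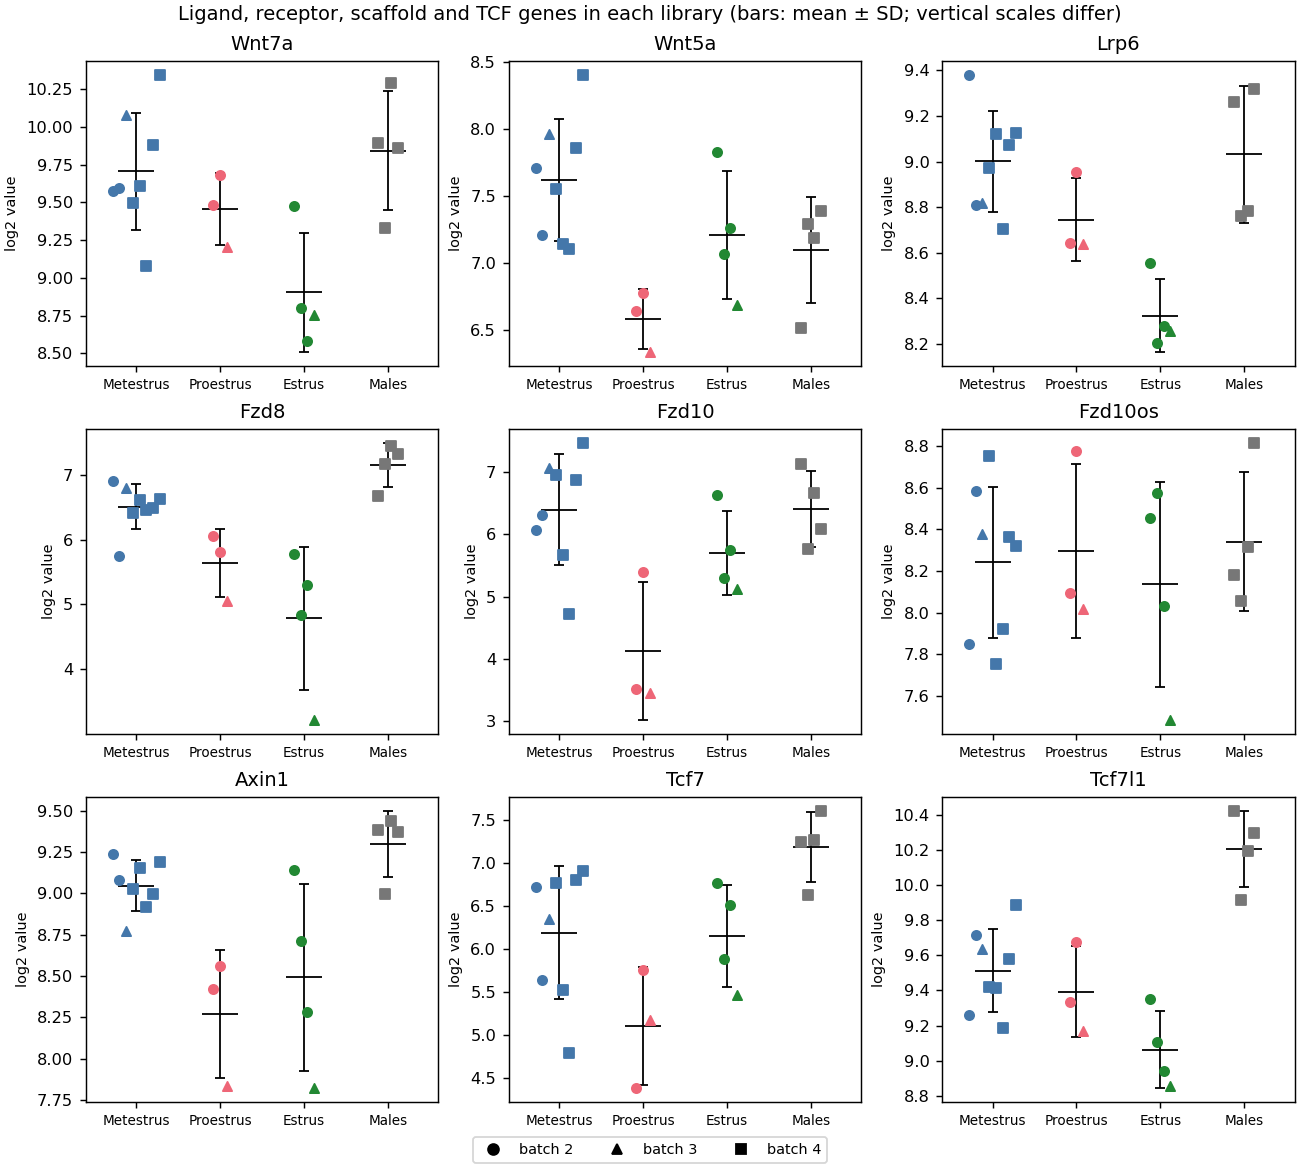
Deposited log2 values of 9 members in each library, by group, with the mean and 1 SD as bars, the batch as the shape of the point and a vertical scale of its own in each panel. Lrp6 in estrus lies between 8.20 and 8.56 below every other group, and Tcf7l1 in males lies between 9.91 and 10.42 above every other group.

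Males were compared with metestrus females within batch 4, which holds both. No member passed the adjusted threshold in limma, beside 0.0242% of all genes. An unadjusted p under 0.05 was found for 4 members (9.3%), beside 5.33% of all genes, and the groups did not overlap for 1 member (2.33%), beside 1.44%. The 4 were Tcf7l1, Tcf7 and Dvl3, higher in males, and Fzd6, lower (-0.75 ± 0.36, SE, adjusted p = 0.934 in limma). The median difference was 0.10 over the members and 0.04 over all genes, with 14 of 43 (32.6%) negative against 44.7% of all genes. All 4 TCF/LEF genes had a positive difference (median 0.40), also after centring and with either pseudocount.

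Tcf7l1 (ENSMUSG00000055799.14), a TCF factor that mostly represses targets, read 10.42, 9.91, 10.20 and 10.30 in males. The metestrus values had 9.18 as the lowest, 9.50 as the median and 9.89 as the highest, so males lay above all 8 libraries. Proestrus gave 9.33, 9.68 and 9.17, and estrus 9.35, 9.11, 8.94 and 8.86. The difference of males from metestrus was 0.71 ± 0.18 (SE, unadjusted p = 0.000584 and adjusted p = 0.603 in limma), or 1.64-fold higher. Leaving out single libraries gave 0.63 to 0.81. The comparison of estrus with metestrus gave -0.49 ± 0.20 (SE, adjusted p = 0.375 in limma).

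Tcf7 (ENSMUSG00000000782.17) read 7.25, 6.63, 7.27 and 7.61 in males. In metestrus its lowest value was 4.79, its median 6.54 and its highest 6.91. Proestrus gave 4.38, 5.75 and 5.17, and estrus 6.76, 5.88, 6.51 and 5.46. Of the male libraries, 3 lay above all females. The difference from metestrus was 1.03 ± 0.45 (SE, adjusted p = 0.895 in limma). Dvl3 (ENSMUSG00000003233.13), which relays the signal from Frizzled, ran from 10.71 to 11.04 in males, with a median of 10.88, and from 10.27 to 10.77 in metestrus, with a median of 10.55. It read 10.42, 10.08 and 10.49 in proestrus and 10.47, 10.13, 10.64 and 10.04 in estrus. The difference of males from metestrus was 0.36 ± 0.16 (SE, adjusted p = 0.895 in limma), and males overlapped metestrus at their lower end.

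Markers of several cell types also lay higher in males than in metestrus, though none passed the threshold. All 9 endothelial markers had a positive difference (median 0.48, 1 at an unadjusted p under 0.05), as did 4 of 6 mural cell markers (median 0.42, 3 at an unadjusted p under 0.05). Of 12 astrocyte markers 10 had a positive difference (median 0.19, 4 at an unadjusted p under 0.05). Their mean was 14.22 to 14.41 in males and 13.93 to 14.40 in metestrus. Fibroblast markers (4 of 6 positive, median 0.44) and neuron markers (6 of 10 positive, median 0.09) each held 2 at an unadjusted p under 0.05. Of 8 RNAs kept in the nucleus 6 had a negative difference (median -0.20), as did 4 of 7 microglia markers (-0.08). The medians were 0.05 for oligodendrocytes, 0.10 for oligodendrocyte precursors and 0.25 for choroid plexus and ependyma. Each of these further lists held 0 at an unadjusted p under 0.05. The part of all these markers in the male values was not tested.

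Apart from Wnt2, the remaining members gave no unadjusted p under 0.05 in any comparison. Among the ligands, Wnt4 averaged 7.84 ± 0.27 (SD, n = 8) in metestrus and 7.53 ± 0.45 (SD, n = 3) in proestrus, and Wnt10a 6.99 ± 0.95 and 7.75 ± 0.53. Wnt6 averaged 5.80 ± 0.97 (SD, n = 8) in metestrus and 6.85 ± 0.84 (SD, n = 4) in males. Wnt3, Wnt5b, Wnt2b, Wnt9b and Wnt16 were low, and their residual SD ran from 0.91 to 2.01. Wnt2 belongs with these low genes, since its estrus values were 2.17, 2.24, 1.69 and 6.37, and its difference from metestrus (-2.05 ± 0.91, SE, adjusted p = 0.403 in limma) rests on 3 libraries under the filter value. Fzd1, Fzd2, Fzd3, Fzd4, Fzd5 and Fzd7 had differences of at most 0.95 in size in the 4 fitted comparisons. Dkk3 ran from 11.75 ± 0.22 (SD, n = 3) in proestrus to 12.10 ± 0.39 (SD, n = 4) in estrus. Apc ran from 10.79 ± 0.42 (SD, n = 4) in estrus to 11.12 ± 0.18 (SD, n = 8) in metestrus. Tcf7l2 ran from 10.85 ± 0.15 (SD, n = 3) in proestrus to 11.18 ± 0.15 (SD, n = 4) in males. Sfrp1 ran from 8.39 ± 0.44 (SD, n = 4) in estrus to 8.90 ± 0.26 (SD, n = 4) in males, and Znrf3 from 9.16 ± 0.31 to 9.78 ± 0.38 in the same groups. Dvl2 likewise ran from 7.32 ± 0.38 to 8.01 ± 0.05. Lrp5 and Rnf43 were highest in proestrus, at 5.60 ± 0.62 (SD, n = 3) and 5.30 ± 0.71 (SD, n = 3), and overlapped the other groups.

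Beyond the members, 84 other genes of the pathway were listed and 80 of them tested. Dkk1, Dkk2, Dkk4 and Sost, all secreted inhibitors, were not among the genes tested. In proestrus against metestrus 0 were higher and 1 lower past the threshold, and in estrus against proestrus also 0 and 1. None passed in estrus against metestrus or in males against metestrus in limma. An unadjusted p under 0.05 was found for 7 of the 80 in proestrus against metestrus, 11 in estrus against proestrus, 9 in estrus against metestrus and 7 in males against metestrus, beside 13.1%, 14.5%, 11.3% and 5.33% of all genes. The medians over the 80 were -0.06, -0.15, -0.16 and 0.08 in the same order. The 7 genes of R-spondins and their Lgr receptors, which amplify Wnt signals, all had a negative difference in estrus against metestrus (median -0.81, 3 at an unadjusted p under 0.05), none of them past the threshold, where 56.5% of all genes were negative. In the other lists, some of which share genes, the negative differences were 5 of 10 secreted inhibitors (median -0.03), 8 of 10 genes of Wnt secretion and coreceptors (-0.11) and 8 of 17 cytoplasmic regulators (0.01). They were 11 of 14 nuclear cofactors (-0.25), 10 of 14 targets of beta-catenin (-0.22) and 9 of 12 planar polarity genes (-0.18). In males against metestrus, 12 of the 14 targets had a positive difference (median 0.37), with 5 at an unadjusted p under 0.05 and none past the threshold, where 44.7% of all genes were negative.

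Notum (ENSMUSG00000042988.11), a secreted enzyme that inactivates Wnt ligands and is itself a target of beta-catenin, was the gene lower in proestrus. Its proestrus libraries read 2.23, 1.33 and -1.19, all under the filter value of 3.32, and its metestrus libraries 4.08 to 5.45. Estrus gave 6.34, 3.77, 2.55 and 2.36, and males 4.53, 5.24, 5.68 and 6.02. Proestrus lay below all libraries of the other groups. The difference from metestrus was -4.02 ± 0.86 (SE, adjusted p = 0.0245 in limma), at -2.79 within batch 2 and -6.49 within batch 3. The adjusted p was 0.0691 once the removed directions were counted. The call was lost without Metestrus replicate 2 (adjusted p = 0.0507), Metestrus replicate 3 (-2.98, adjusted p = 0.143), Proestrus replicate 2 (adjusted p = 0.0627) or Proestrus replicate 3 (-3.24, adjusted p = 0.112), with a pseudocount of 10 (-1.64, adjusted p = 0.170) and with batches 2 and 3 alone (adjusted p = 0.354).

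Dact3 (ENSMUSG00000078794.5), a Dishevelled-binding antagonist, was like Bcl9l highest in proestrus and lowest in estrus by group mean. It was named because it passed the threshold in estrus against proestrus, so this likeness follows from how it was picked. Its proestrus libraries read 10.98, 11.06 and 10.59, and its estrus libraries 10.19, 9.65, 9.82 and 10.14. Metestrus ran from 10.03 to 10.33, and males read 10.11, 10.32, 10.23 and 10.16. Proestrus lay above all libraries of the other groups. The difference of estrus against proestrus was -0.93 ± 0.17 (SE, adjusted p = 0.00937 in limma), at -1.13 within batch 2 and -0.46 within batch 3, and the adjusted p was 0.0405 once the removed directions were counted. The call was lost without Proestrus replicate 1 (-0.87, adjusted p = 0.0684) or Proestrus replicate 2 (-0.82, adjusted p = 0.0698), and with batches 2 and 3 alone (adjusted p = 0.162). Proestrus against metestrus gave 0.69 (adjusted p = 0.0738 in limma).

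**Figure D5:**
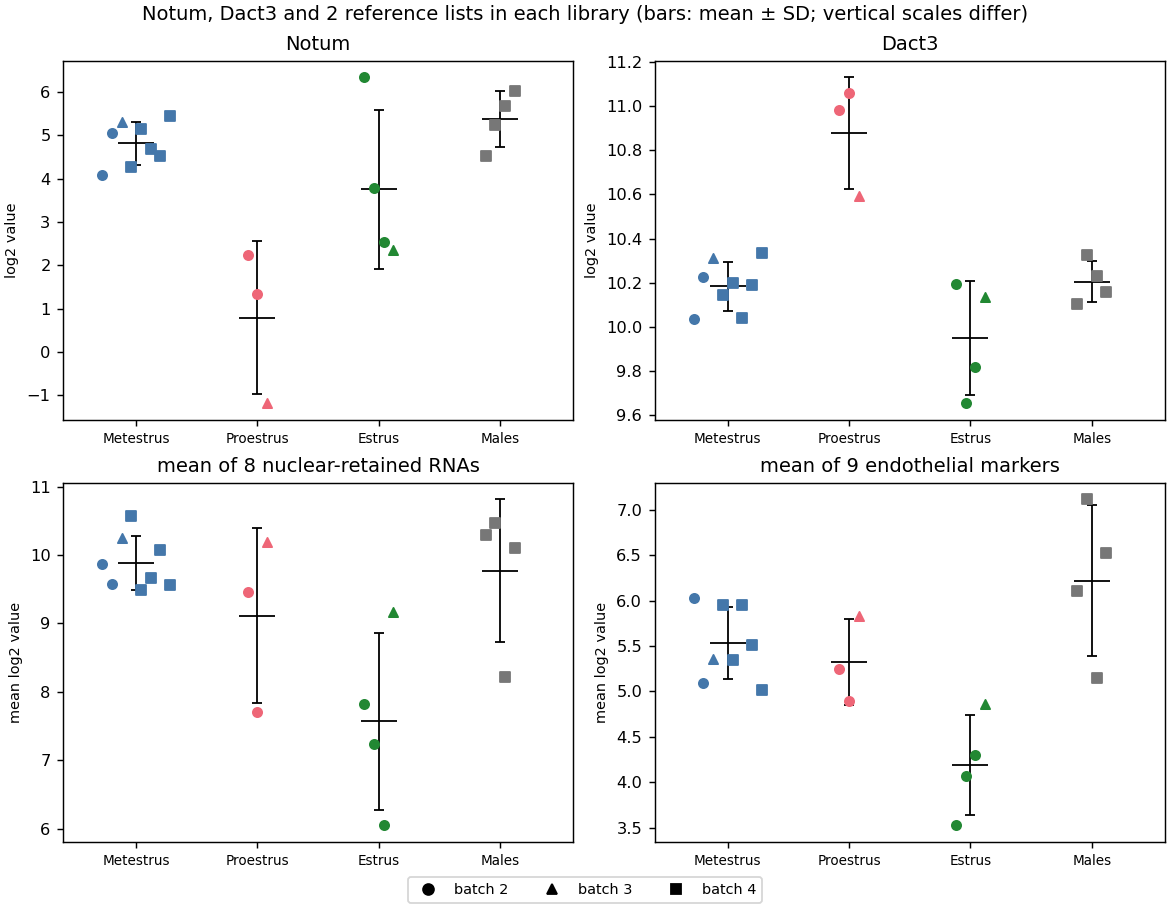
Deposited log2 values of Notum and Dact3 and the mean log2 value of 8 nuclear-retained RNAs and 9 endothelial markers in each library, by group, with the mean and 1 SD as bars. Notum lies under 3.32 in all 3 proestrus libraries, Dact3 is highest there, and the endothelial mean is lowest in estrus.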

How the data were processed

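RNA sequencing libraries of ribosome-bound messenger RNA were analysed from the values the authors deposited, which are on a log2 scale (-5.12 to 19.00) for 21749 genes in 19 libraries. Per the submitters' processing notes, STAR, Salmon, edgeR and the build GRCm39 were used, without versions or order. The authors' scaling, pseudocount and filter are not stated in any source used here. The values span 14 of 18 dimensions after centring and 11 of 15 after the groups are fitted, so some directions of variation were removed before deposit with the group means kept, which makes p-values too small.

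A gene was tested where 3 or more libraries reached 3.32 (log2 of 10), which kept 20644. limma 3.58.1 in R 4.3.3 (trend and robust prior) fitted group and batch to all 19 libraries, with 13 residual degrees of freedom. P-values are two-sided, with Benjamini-Hochberg adjustment across every gene tested and a threshold of 0.05. A second fit counts the removed directions (11 degrees of freedom). The scripts were tested on simulated data. Males were compared with metestrus alone, the one stage in their batch. Fold changes between stages rest on batches 2 and 3.

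The members and lists were chosen with earlier results of these data known. Members named library by library were those past the threshold, the 3 with the smallest p in each comparison (mean of at least 3.32 in either group), and both Bcl9 genes. Other members are given by group means or by counts, and Fzd10os, Fzd6, Fzd9, Lef1, Wnt9a and Wnt2 were added after their values were seen. Every other pathway gene past the threshold was named. Alternatives changed the filter, scaling, pseudocount, batch term, removed directions, variance model and libraries in the fit. Motifs and exon lengths come from RefSeq and GENCODE vM21 tables of build GRCm38, not the build of the files, and no protein sequence was used here.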

Additional observations from a re-analysis of the deposited data

Results flagged for a closer look

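Among 33 groups of 4 to 8 libraries (11 genes in 3 groups each), 2 held a library far from the others of its group, where chance gives about 1 in 20. Axin1 read 9.00 in Males replicate 2, and 9.37 to 9.44 in the other male libraries. Fzd8 read 5.75 in Metestrus replicate 2, and 6.41 to 6.91 in the other metestrus libraries.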

How the results depend on the processing

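No paired analysis was possible because replicate numbers only follow the order of deposit and pair no libraries across groups. The count of members past the threshold was 0 in proestrus against metestrus and became 3 without the batch term (Fzd10, Axin1 and Wnt5a, all lower). In estrus against metestrus it was 0 and became 4 without the batch term (Fzd8, Lrp6, Wnt7a and the preselected Bcl9l, all lower). In estrus against proestrus it was 1, which was Bcl9l, known when the list was drawn up and so a description, and 0 with batches 2 and 3 alone. With single libraries left out, these counts were 0 to 0, 0 to 0 and 0 to 1, with 0 in the last without Proestrus replicate 1. In males against metestrus the count was 0 under every alternative run. Of 893 values of single genes under an alternative, 853 kept their direction and side of the threshold, 7 newly passed it, 12 no longer passed it and 21 changed sign, all of them from small differences short of the threshold. Many of these values could not change direction. Stage differences rest on batches 2 and 3, so leaving out a batch 4 library, or using batches 2 and 3 alone, left them unchanged. Changes of filter, variance model or removed directions act on p-values alone. The 853 therefore do not measure how firm the differences are. After centring, Lrp6 in males against metestrus changed to -0.011. The other sign changes came with single libraries left out. In proestrus against metestrus the ranges were -0.31 to 0.11 for Bcl9 and -0.32 to 0.0074 for Tcf7l1. The range was -0.16 to 0.15 for Dvl3 in estrus against proestrus and -0.49 to 0.19 for Tcf7 in estrus against metestrus. In males against metestrus it was -0.33 to 0.36 for Fzd10, -0.064 to 0.12 for Lrp6, -0.15 to 0.23 for Bcl9l and -0.0089 to 0.14 for Bcl9. Depth is unknown, and values near or under 3.32, as in some libraries for Fzd8, Fzd10, Wnt2, Wnt9b, Wnt16 and Notum, are the least certain.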
